A study of Macaca fascicularis with 7 samples.

Results

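The genes that start, build and finish autophagy were followed through oocyte maturation in the cynomolgus monkey (Macaca fascicularis). The list holds 39 genes of autophagosome formation and of the lysosome, chosen by name with earlier results of these data known. All 39 were found by an exact match of the gene name among the 28161 usable gene rows of the deposited count table. Messenger RNA had been counted in 7 libraries of wild-type oocytes. Metaphase II (MII) oocytes matured in culture (in vitro matured, IVM, labelled as treated) gave 3 libraries. The in vivo matured (IVO) MII oocytes, labelled as control, gave 2, and immature oocytes still holding the germinal vesicle (GV, labelled as control), the large nucleus of the prophase arrest, gave 2. The labels give neither the age of the animals, the maturation medium or hormone treatment, the number of oocytes in a library, nor whether libraries came from separate animals, so a p-value here covers the spread among these libraries alone, and that spread can be technical.

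Macroautophagy encloses cytoplasm in a double membrane, the autophagosome, and delivers it to the lysosome for digestion. A kinase complex around ULK1 or ULK2 receives the starting signal, a lipid kinase complex around PIK3C3 and BECN1 marks the membrane with a phosphoinositide, and WIPI proteins, ATG2 and ATG9 feed lipid into it. A pair of ubiquitin-like conjugation systems then attaches proteins of the LC3 and GABARAP family to the membrane, where they bind cargo receptors such as SQSTM1. In mouse, embryos that lack ATG5 from both the oocyte and the sperm stop at early cleavage stages, and autophagy there helps to remove maternal proteins after fertilisation.

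Libraries held 22901970 to 29245733 counts. Levels are CPM, counts scaled to a common library size, after TMM scaling (trimmed mean of M values, which corrects library sizes for a few dominant genes), and values of a group are listed in the order of its replicates. The counts are shares of a library, so fewer molecules per oocyte and a smaller share cannot be told apart. Poly(A) priming adds that a shorter tail and fewer molecules cannot be told apart either. Of the oocyte markers 16 of 18 were found, and their summed level was 9118 to 18210.2 CPM in IVM MII, 8855 to 10853 CPM in IVO MII and 12885 to 15237 CPM in GV. The macrophage and blood markers summed to 0.376 to 6.17 CPM, 3.28 to 4.38 CPM and 26.7 to 35.03 CPM in the same order. CD14 and LYZ were at 0 in all 7 libraries, and CSF1R alone made up 32.9 and 24.8 CPM of the GV sums. Markers of cumulus and granulosa cells (14 of 15 found) summed to 97.2 to 218 CPM in IVM MII, 61.4 to 102 CPM in IVO MII and 18.5 to 19.6 CPM in GV, with AMH, NR5A1 and PTX3 at 0 throughout. TNFAIP6 held 149, 115 and 55.6 CPM of the IVM MII sums and FSHR 53.5, 30.3 and 21.9 CPM. HAS2 was highest in IVO MII, at 39.4 and 38.6 CPM, and 7 of the 14 markers were at 0 in IVM MII. Markers of stroma and endothelium summed to 60.8 to 89.8, 88.5 to 127 and 1081 to 1212 CPM. COL3A1 and LUM were at 0, and VWF held 991 and 1140.1 CPM of the GV sums. These sums move with the stage, and their part in the comparisons below was not tested. The labels' file paths put both GV libraries in another folder of alignments than all MII libraries, so folder and stage cannot be told apart.

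**Figure D1:**
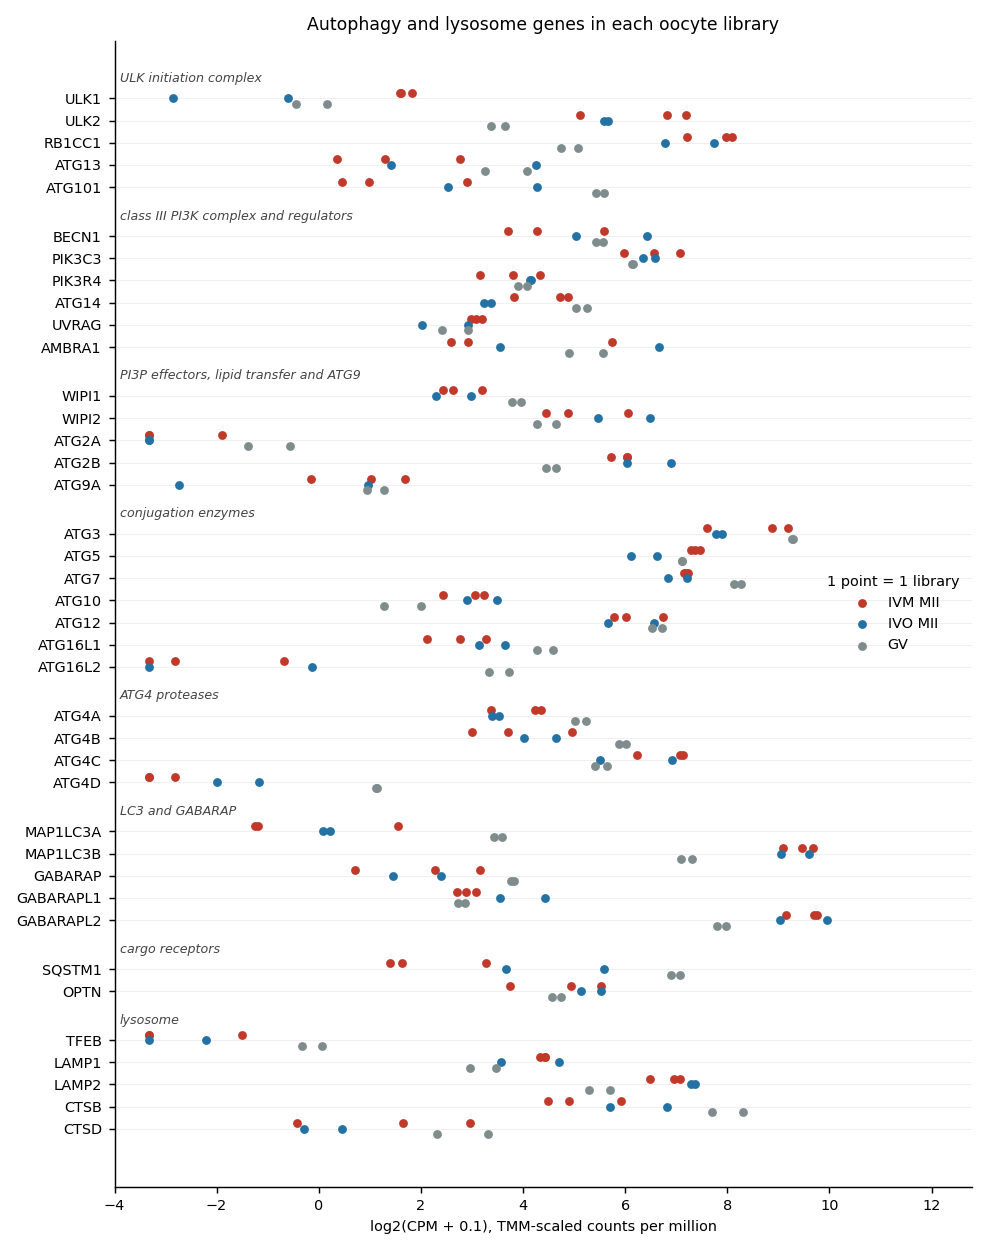
Level of each of the 39 genes in each of the 7 libraries, on a log2 axis of CPM + 0.1, with genes grouped by role, and IVM MII, IVO MII and GV drawn from top to bottom within a gene. All MII libraries lie to the right of both GV libraries for MAP1LC3B, GABARAPL2, RB1CC1 and ULK2 and to the left of them for SQSTM1, CTSB and ATG101, while AMBRA1 is spread over both sides.

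Autophagy transcripts differed between MII and GV in both directions. Against GV, 6 of the 38 members that passed the filter on low counts rose and 4 fell in IVO MII, where 14.6% of all 16374 tested genes rose and 13.5% fell (28.1% in all). In IVM MII 6 rose and 9 fell, where 18.5% of all tested genes rose and 17.8% fell (36.3% in all). The shares of members, 15.8% higher and 10.5% lower in IVO MII and 15.8% higher and 23.7% lower in IVM MII, are thus near those of all genes or differ from them by a few genes. The median log2 fold change of the members was -0.58 in IVO MII and -0.48 in IVM MII, beside -0.16 and -0.10 over all tested genes. All IVO MII libraries were above GV for 13 tested members and below GV for 18, while 32% and 40.8% of all genes had no overlap in these directions. For IVM MII the members numbered 12 and 16, beside 31.5% and 37.5% of all genes. Between IVM and IVO MII, 0 of 38 members passed the test, where 0.892% of all genes were higher and 0.58% lower (1.47% in all). A gene counted as changed at an edgeR adjusted p under 0.05, with the spread estimated from all 7 libraries. The remaining member, ATG2A, was too low to be tested.

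Many of these calls rest on both GV libraries being present. Fewer of all tested genes passed as well without GV replicate 1 or without GV replicate 2. Each of these fits leaves 1 GV library, and whether the members lost more calls than other genes was not tested. Without GV replicate 1, the IVO MII comparison kept 1 higher member, MAP1LC3B, and 0 lower ones, and the IVM MII comparison kept 2 higher (RB1CC1 and MAP1LC3B) and 3 lower (ATG101, SQSTM1 and CTSB). Without GV replicate 2, IVO MII kept RB1CC1 and MAP1LC3B, and IVM MII kept the same 5 genes together with ULK2. Without IVO MII replicate 1, which leaves 1 IVO MII library, fewer members and fewer of all tested genes passed in IVO MII. Without IVM MII replicate 3 the lower members in IVO MII numbered 10, beside 2714 of all tested genes. In IVM MII, 5 members fell without IVM MII replicate 1 and 5 without replicate 2. Of all tested genes, 2054 and 2211 fell in these fits, against 2912 with every library kept. The 6 calls that held in every setting run were MAP1LC3B in both comparisons and RB1CC1, ATG101, SQSTM1 and CTSB in IVM MII. With library totals left unscaled, 4 members rose and 8 fell in IVO MII, beside 1340 and 3123 of all tested genes. In IVM MII 4 members rose and 14 fell with unscaled totals, beside 1608 and 4170 of all tested genes. That choice, made after the data were seen, moved the median of all genes to -0.78 in IVO MII and -0.80 in IVM MII, and 0 called members changed sign under any scaling run.

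**Figure D2:**
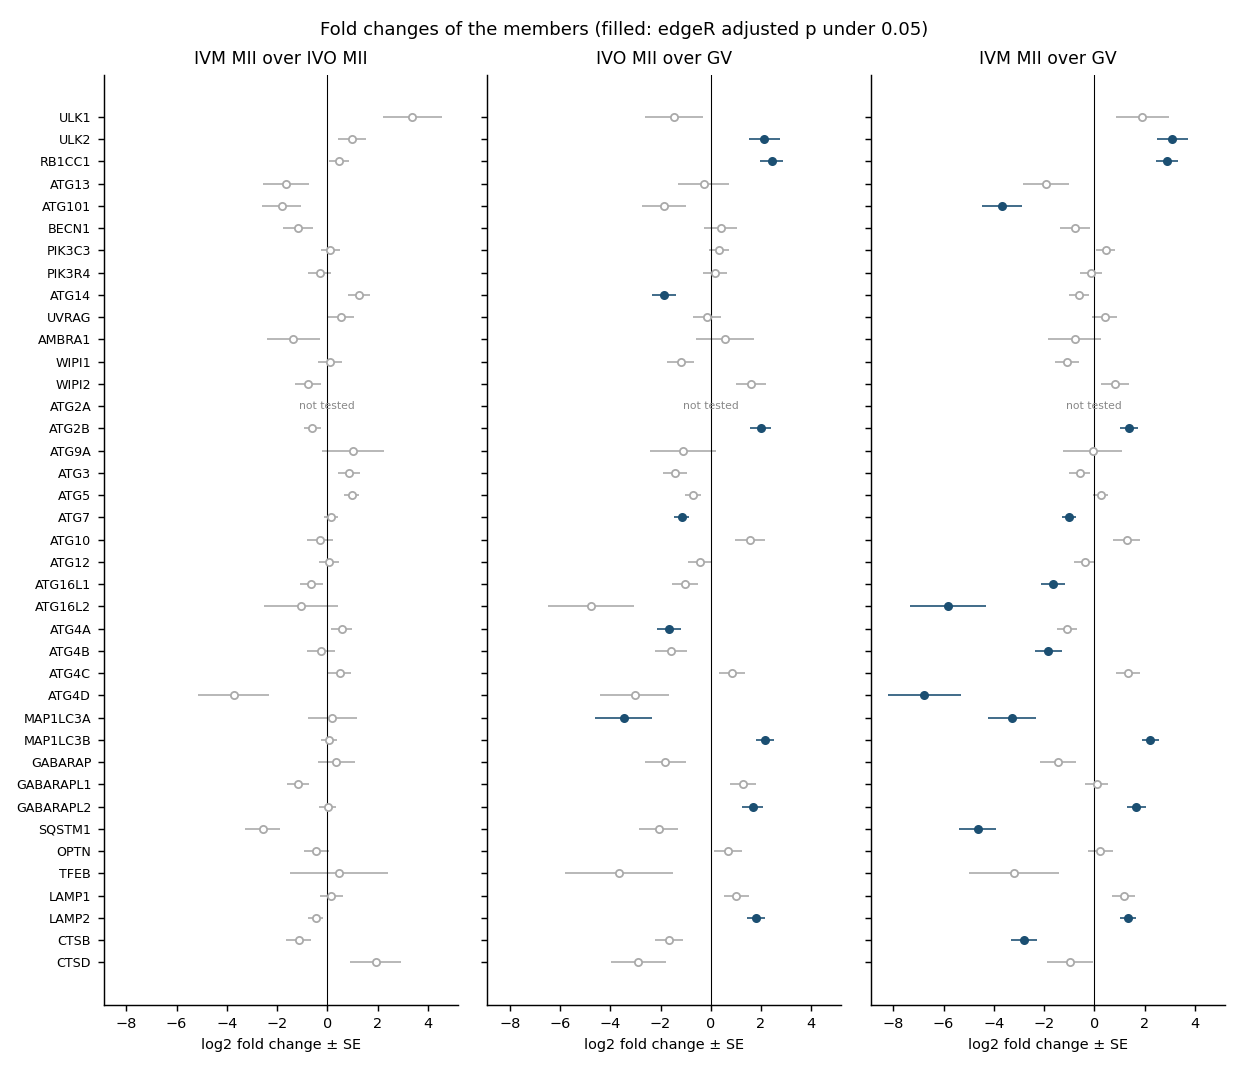
Fitted log2 fold changes with their standard errors for the 38 tested genes in the 3 comparisons, IVM MII over IVO MII, IVO MII over GV and IVM MII over GV. Filled points passed an edgeR adjusted p under 0.05: 0 in the left panel, 10 in the middle and 15 in the right, and the fold of ATG4D in IVM MII rests on 1 count.

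In the ULK initiation complex the scaffold and 1 of the kinases rose, while a small partner fell. RB1CC1, also called FIP200, is the scaffold that holds the complex together (chromosome 8, bases 53616725 to 53713751 of the deposited table). RB1CC1 had 252, 273 and 148 CPM in IVM MII, 215 and 109 CPM in IVO MII, and 26.7 and 33.4 CPM in GV. Every MII library lay above both GV libraries, and the row that shares exonic bases with it on the opposite strand had 0 CPM in all groups. It rose in IVM MII (log2 fold change 2.90 with an SE of 0.45, edgeR adjusted p = 0.00250) and in IVO MII (log2 fold change 2.43 with an SE of 0.46, edgeR adjusted p = 0.00662). ULK2 had 146, 113 and 34.7 CPM in IVM MII, 50.8 and 47.97 CPM in IVO MII, and 10.2 and 12.4 CPM in GV. ULK2, a serine/threonine kinase that starts autophagosome formation, thus had no overlap between MII and GV, and it rose by 3.11 on the log2 scale in IVM MII (SE 0.61, edgeR adjusted p = 0.00547) and by 2.13 in IVO MII (SE 0.61, edgeR adjusted p = 0.0316). ATG101, which binds and stabilises ATG13, went the other way (chromosome 11, bases 50964595 to 50973238). ATG101 had 1.88, 7.40 and 1.28 CPM in IVM MII, 5.71 and 19.2 CPM in IVO MII, and 47.6 and 42.9 CPM in GV. It fell in IVM MII (log2 fold change -3.68 with an SE of 0.80, edgeR adjusted p = 0.00876) and was at -1.86 in IVO MII (SE 0.87, edgeR adjusted p = 0.140), with both IVO MII libraries below GV.

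The related kinase ULK1 stayed at low levels throughout. ULK1 had 2.90, 3.47 and 2.97 CPM in IVM MII, 0.561 and 0.0386 CPM in IVO MII, and 0.635 and 1.01 CPM in GV. All IVM MII libraries were above both GV libraries and both IVO MII libraries were below them, with 11 counts and 1 count behind the IVO MII values. Neither comparison with GV passed the test (log2 fold changes 1.91 in IVM MII and -1.48 in IVO MII), and IVM over IVO MII gave 3.39 (SE 1.16, edgeR adjusted p = 0.151). Per kilobase of exon, ULK2 averaged 16.3 CPM in IVM MII, 8.25 in IVO MII and 1.89 in GV, against 0.611, 0.0588 and 0.162 for ULK1 in the same order. ATG13, the adaptor between the kinase and RB1CC1, was spread widely. ATG13 had 1.18, 2.37 and 6.66 CPM in IVM MII, 2.55 and 18.9 CPM in IVO MII, and 16.8 and 9.42 CPM in GV. It shares 329 exonic bases with HARBI1 on the opposite strand, which averaged 1.04 CPM in IVM MII, 0.713 CPM in IVO MII and 5.30 CPM in GV. ATG13 was called in neither comparison, with log2 fold changes of -1.94 (SE 0.91) in IVM MII and -0.29 (SE 1.00) in IVO MII. The ULK2 call in IVO MII was lost without IVM MII replicate 2, IVO MII replicate 1, IVO MII replicate 2, GV replicate 1 and GV replicate 2 (edgeR adjusted p = 0.0509 to 0.169) and with unscaled totals (0.0846), its call in IVM MII without GV replicate 1 (edgeR adjusted p = 0.0520), and that of RB1CC1 in IVO MII without GV replicate 1 (edgeR adjusted p = 0.0635).

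In the class III lipid kinase complex, ATG14 fell in IVO MII. Of its 6 members and regulators, 0 were called in IVM MII and 1 in IVO MII, beside 36.3% and 28.1% of all tested genes, and nothing is read from counts this small. ATG14 directs the complex to the site where autophagosomes form. ATG14 had 29.5, 26.2 and 14.1 CPM in IVM MII, 9.27 and 10.2 CPM in IVO MII, and 38.05 and 32.9 CPM in GV. All MII libraries were below GV and the IVO MII libraries were lowest (IVO MII over GV, log2 fold change -1.86 with an SE of 0.47, edgeR adjusted p = 0.0195), while IVM MII over GV stood at -0.61 (SE 0.41, edgeR adjusted p = 0.271). UVRAG, which takes the place of ATG14 in the endosomal form of the complex, had log2 fold changes of 0.41 in IVM MII and -0.14 in IVO MII. The catalytic subunit PIK3C3 ranged over 62.7 to 135 CPM in IVM MII, was at 81.6 and 96.4 CPM in IVO MII and at 70.4 and 70.8 CPM in GV. Its regulatory subunit PIK3R4 ranged over 8.85 to 20.01 CPM in IVM MII, at 17.8 and 17.5 CPM in IVO MII and 14.9 and 16.7 CPM in GV. It shares 368 exonic bases with COL6A6 on the opposite strand, which averaged 33.9 CPM in IVM MII, 41.5 CPM in IVO MII and 21.4 CPM in GV.

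Spread between MII libraries dominated the other members of this complex. AMBRA1 had 5.96, 7.44 and 53.4 CPM in IVM MII, 11.7 and 102 CPM in IVO MII, and 47.1 and 29.9 CPM in GV. AMBRA1, a scaffold that activates the BECN1 complex, was thus highest in IVO MII replicate 2 and lowest in IVM MII replicate 1, and the groups overlapped in every comparison. Its SE was 1.16 over a log2 fold change of 0.56 in IVO MII, which became -1.73 without IVO MII replicate 2. BECN1 had 19.2, 12.9 and 47.9 CPM in IVM MII, 32.7 and 85.99 CPM in IVO MII, and 47.2 and 43.2 CPM in GV. BECN1, the core regulatory subunit, was likewise highest in IVO MII replicate 2, with IVM MII replicate 3 above the other IVM MII libraries. Its log2 fold change of 0.39 in IVO MII became -0.47 without IVO MII replicate 2. Of the exonic bases of BECN1, 33.7% are shared with CNTD1 on the opposite strand, which averaged 1.03 CPM in IVM MII, 0.671 CPM in IVO MII and 0.373 CPM in GV, and whether the counting used strand is unknown here. The ATG14 call was lost without IVO MII replicate 1, IVO MII replicate 2, GV replicate 1 and GV replicate 2 (edgeR adjusted p = 0.0527 to 0.116).

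Among the proteins that feed lipid into the growing membrane, ATG2B rose. It transfers phospholipid from the endoplasmic reticulum. ATG2B had 65.5, 65.2 and 52.6 CPM in IVM MII, 119 and 65.5 CPM in IVO MII, and 21.9 and 24.8 CPM in GV. MII and GV libraries did not overlap (IVM MII over GV, log2 fold change 1.39 with an SE of 0.37, edgeR adjusted p = 0.0203; IVO MII over GV, log2 fold change 1.98 with an SE of 0.40, edgeR adjusted p = 0.00846). The relative ATG2A was low, with 4 counts in all IVM MII libraries, 0 counts in both IVO MII libraries and 28 counts in GV, at least 3.20-fold lower in IVO MII against a floor of 3 counts in each library. WIPI2, which recruits the ATG16L1 complex to the membrane, had 29.3, 21.6 and 66.3 CPM in IVM MII, 44.1 and 89.4 CPM in IVO MII and 19.3 and 24.8 CPM in GV. Both IVO MII libraries were above GV while IVM MII replicate 2 fell between the GV libraries, and log2 fold changes of 0.83 (SE 0.55) in IVM MII and 1.60 (SE 0.60, edgeR adjusted p = 0.0759) in IVO MII were not called. The WIPI2 row joins exons on chromosomes 13 and 3 of the deposited table, so its count may hold reads of more than 1 locus. WIPI1 lay below GV in all MII libraries without a call (log2 fold changes -1.10 and -1.20 in IVM and IVO MII). ATG9A, the membrane protein of the vesicles that seed the autophagosome, peaked at 3.12 CPM in IVM MII replicate 3, with 1 and 48 counts in IVO MII. The ATG2B call was lost in IVM MII without IVM MII replicate 1, IVM MII replicate 2, GV replicate 1 and GV replicate 2 (edgeR adjusted p = 0.0519 to 0.177) and with unscaled totals (0.149), and in IVO MII without GV replicate 1 and GV replicate 2 (edgeR adjusted p = 0.0680 to 0.0894).

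Of the 7 conjugation enzymes, 3 fell in IVM MII, 1 fell in IVO MII and 0 rose in either. Of all tested genes, 17.8% fell and 18.5% rose in IVM MII, and 13.5% fell and 14.6% rose in IVO MII, and nothing is read from the counts of 7 genes. ATG7, the E1-like enzyme that activates both ubiquitin-like systems, was among the more abundant members. ATG7 had 145, 142 and 151 CPM in IVM MII, 115 and 148 CPM in IVO MII, and 279.8 and 307 CPM in GV. The MII libraries were close to each other and all below GV, and ATG7 fell by 1.01 on the log2 scale in IVM MII (SE 0.27, edgeR adjusted p = 0.0207) and by 1.16 in IVO MII (SE 0.31, edgeR adjusted p = 0.0234). ATG16L1 had 4.24, 6.68 and 9.59 CPM in IVM MII, 8.71 and 12.5 CPM in IVO MII, and 23.8 and 19.3 CPM in GV. ATG16L1, which places the ATG12 and ATG5 conjugate on the membrane, fell in IVM MII (log2 fold change -1.65 with an SE of 0.47, edgeR adjusted p = 0.0258) and was at -1.02 in IVO MII (SE 0.53, edgeR adjusted p = 0.175). ATG16L2 had 0, 0.0423 and 0.526 CPM in IVM MII, 0 and 0.810 CPM in IVO MII, and 13.1 and 9.99 CPM in GV. The relative ATG16L2 thus held 0 counts in 1 library of each MII group, and it fell in IVM MII (log2 fold change -5.82 with an SE of 1.53, edgeR adjusted p = 0.0185), with -4.78 in IVO MII (SE 1.71, edgeR adjusted p = 0.0666).

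The E2-like enzyme ATG3, which attaches LC3 to phosphatidylethanolamine, was the most abundant member per kilobase in GV. ATG3 had 581, 469.8 and 195 CPM in IVM MII, 221 and 239 CPM in IVO MII, and 627 and 614 CPM in GV. IVM MII replicates 1 and 2 were below GV, and IVM MII replicate 3 lay with IVO MII. The log2 fold change over GV was -1.43 in IVO MII (SE 0.48, edgeR adjusted p = 0.0543) and -0.58 in IVM MII (SE 0.43). ATG5 had 157, 164 and 176 CPM in IVM MII, 98.3 and 69.6 CPM in IVO MII, and 138 and 139 CPM in GV. ATG5, the acceptor of ATG12, was above GV in all IVM MII libraries and below GV in both IVO MII libraries, by log2 fold changes of 0.26 and -0.72 that did not pass the test. Its partner ATG12 overlapped between all groups and shares 217 exonic bases with AP3S1 on the opposite strand, which averaged 254 CPM in IVM MII, 185 CPM in IVO MII and 36.3 CPM in GV. ATG10, the E2-like enzyme of that conjugate, had 5.31 to 9.29 CPM in IVM MII, 11.2 and 7.36 CPM in IVO MII and 2.33 and 3.92 CPM in GV, without a call. The ATG7 call was lost in IVM MII without IVM MII replicate 1, IVM MII replicate 2, GV replicate 1 and GV replicate 2 (edgeR adjusted p = 0.0598 to 0.163) and in IVO MII without IVO MII replicate 1, GV replicate 1 and GV replicate 2 (edgeR adjusted p = 0.0906 to 0.158). In IVM MII that of ATG16L1 was lost without IVM MII replicate 1, IVM MII replicate 2, GV replicate 1 and GV replicate 2 (edgeR adjusted p = 0.0669 to 0.179), and that of ATG16L2 without IVM MII replicate 2, GV replicate 1 and GV replicate 2 (edgeR adjusted p = 0.0545 to 0.0806).

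The LC3 and GABARAP proteins, which are bound to the autophagosome membrane and catch cargo, split into a pair that rose, 1 that fell and others that were not called. MAP1LC3B encodes the LC3 protein used as the standard marker of autophagosomes (chromosome 20, bases 75759004 to 75771805). MAP1LC3B had 821, 702 and 549 CPM in IVM MII, 780.4 and 533 CPM in IVO MII, and 137 and 159 CPM in GV. All MII libraries were above both GV libraries, and it rose in IVM MII (log2 fold change 2.22 with an SE of 0.34, edgeR adjusted p = 0.00240) and in IVO MII (log2 fold change 2.15 with an SE of 0.36, edgeR adjusted p = 0.00416). GABARAPL2 had 835, 866 and 571 CPM in IVM MII, 986 and 521 CPM in IVO MII, and 224 and 252 CPM in GV. GABARAPL2, also called GATE-16, rose as well (log2 fold change 1.67 with an SE of 0.38, edgeR adjusted p = 0.0103 in IVM MII and log2 fold change 1.66 with an SE of 0.40, edgeR adjusted p = 0.0166 in IVO MII). The opposite was seen for MAP1LC3A, a close relative of MAP1LC3B. MAP1LC3A had 0.322, 2.83 and 0.338 CPM in IVM MII, 1.07 and 0.964 CPM in IVO MII, and 11.9 and 10.7 CPM in GV. It fell by 3.27 on the log2 scale in IVM MII (SE 0.96, edgeR adjusted p = 0.0283) and by 3.47 in IVO MII (SE 1.13, edgeR adjusted p = 0.0495).

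GABARAP and GABARAPL1, the remaining relatives, were not called. GABARAP had 4.72, 8.87 and 1.54 CPM in IVM MII, 2.65 and 5.17 CPM in IVO MII, and 14.1 and 13.4 CPM in GV. All MII libraries of GABARAP lay below GV, at log2 fold changes of -1.45 (SE 0.70) in IVM MII and -1.81 (SE 0.80) in IVO MII. GABARAPL1 had 8.32, 7.27 and 6.47 CPM in IVM MII, 11.7 and 21.4 CPM in IVO MII, and 7.20 and 6.48 CPM in GV. For GABARAPL1 both IVO MII libraries were above all others, at 1.27 over GV (SE 0.51, edgeR adjusted p = 0.0908). Genes of this family are similar in sequence and have intronless copies in primates, so reads may have been shared out among them by the authors' counting. The MAP1LC3A call was lost in IVM MII without IVM MII replicate 1, IVM MII replicate 3, GV replicate 1 and GV replicate 2 (edgeR adjusted p = 0.0528 to 0.121) and in IVO MII without IVO MII replicate 1, IVO MII replicate 2, GV replicate 1 and GV replicate 2 (edgeR adjusted p = 0.140 to 0.164), and the GABARAPL2 call in IVM MII without GV replicate 1 and GV replicate 2 (edgeR adjusted p = 0.0678 to 0.0963) and in IVO MII without IVO MII replicate 1, GV replicate 1 and GV replicate 2 (edgeR adjusted p = 0.0787 to 0.123) and with unscaled totals (0.0588).

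ATG4 proteases trim LC3 and GABARAP proteins before they are attached and release them afterwards. ATG4B had 7.89, 12.97 and 31.1 CPM in IVM MII, 16.1 and 24.9 CPM in IVO MII, and 64.2 and 58.8 CPM in GV. ATG4B, the most active of them on LC3, was below GV in all MII libraries and fell in IVM MII (log2 fold change -1.83 with an SE of 0.55, edgeR adjusted p = 0.0321), with -1.59 in IVO MII (SE 0.63, edgeR adjusted p = 0.0880). ATG4A had 10.3, 18.6 and 20.2 CPM in IVM MII, 10.4 and 11.5 CPM in IVO MII, and 37.3 and 32.3 CPM in GV. ATG4A shares 87 exonic bases with PSMD10 on the opposite strand, which averaged 229 CPM in IVM MII, 12.7 CPM in IVO MII and 181 CPM in GV. It fell in IVO MII (log2 fold change -1.67 with an SE of 0.46, edgeR adjusted p = 0.0283), with -1.09 in IVM MII (SE 0.40, edgeR adjusted p = 0.0640). ATG4D had 0, 1 and 0 counts in IVM MII, 3 and 9 in IVO MII, and 69 and 67 in GV. In IVM MII it was lower by a ratio of 145 (95% counting interval 25.6 to 5763, edgeR adjusted p = 0.00846), and 15.8% of its exonic bases are shared with KRI1 on the opposite strand. ATG4C had 139.8, 135 and 74.8 CPM in IVM MII, 120.5 and 45.2 CPM in IVO MII, and 42.3 and 49.6 CPM in GV. Values of ATG4C lay in the other direction without a call, at log2 fold changes of 1.34 in IVM MII (edgeR adjusted p = 0.0588) and 0.85 in IVO MII. The ATG4B call was lost without IVM MII replicate 1, IVM MII replicate 2, GV replicate 1 and GV replicate 2 (edgeR adjusted p = 0.0721 to 0.135), that of ATG4A without IVO MII replicate 1, IVO MII replicate 2, GV replicate 1 and GV replicate 2 (edgeR adjusted p = 0.0697 to 0.163), and that of ATG4D without GV replicate 1 and GV replicate 2 (edgeR adjusted p = 0.0809 to 0.0870).

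The shares of relatives within a family differed between MII and GV libraries for several genes, among them ATG4C, WIPI1, ATG16L2 and MAP1LC3B. Shares are of the family's summed CPM per kilobase in a library, as mean ± SD over 3 IVM MII, 2 IVO MII and 2 GV libraries, and have no test of their own. ATG4C made up 62.4% ± 19.03 of the ATG4 family in IVM MII, 53.1% ± 22.04 in IVO MII and 18.5% ± 2.83 in GV, and ATG4B 18.6% ± 13.7, 29.6% ± 16.1 and 48.8% ± 1.12 in the same order. ATG4C led in all 3 IVM MII libraries and in IVO MII replicate 1, and ATG4B led in IVO MII replicate 2 and in both GV libraries. WIPI2 supplied 81.8%, 79.2% and 87.3% of the WIPI pair in IVM MII, 89.5% and 91.5% in IVO MII and 56.98% and 59.8% in GV. ATG16L2 supplied 34.5% and 33.2% of the ATG16L pair in GV and at most 5.86% in any MII library. MAP1LC3A and GABARAP took smaller shares of the LC3 and GABARAP family in MII, at 0.137% ± 0.160 and 0.621% ± 0.401 in IVM MII, 0.137% ± 0.0398 and 0.603% ± 0.455 in IVO MII, and 4.58% ± 0.683 and 5.84% ± 0.610 in GV. MAP1LC3B took a larger share in every MII library than in GV, at 37.1% ± 2.60 in IVM MII, 36.4% ± 3.64 in IVO MII and 25.5% ± 0.843 in GV. The share of GABARAPL2, whose level rose, was 61.7% ± 2.12 in IVM MII, 61.6% ± 5.01 in IVO MII and 62.6% ± 0.655 in GV. The summed level of the family was 820.5 ± 167 CPM per kilobase in IVM MII, 806 ± 291 in IVO MII and 254 ± 18.4 in GV.

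**Figure D3:**
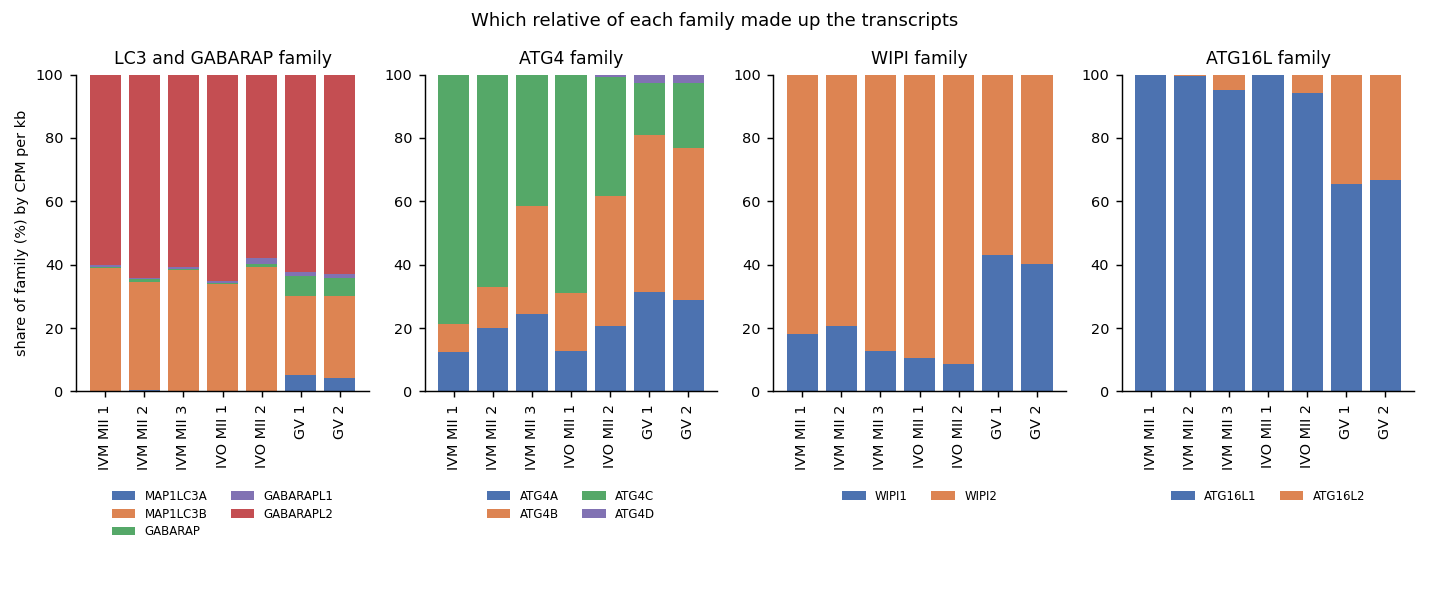
Share of each relative in the summed CPM per kilobase of 4 gene families, 1 bar per library, with IVM MII on the left, IVO MII in the middle and GV on the right. In GV, ATG16L2 holds 34.5% and 33.2% and WIPI1 43.02% and 40.2% of their families, and both shares are smaller in every MII library, while ATG4C takes more of the ATG4 family in MII than its 16.4% and 20.5% in GV.

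SQSTM1 fell steeply in IVM MII. It encodes p62, a receptor that binds ubiquitinated cargo and LC3 and is itself degraded by autophagy (chromosome 6, bases 179795256 to 179833713). SQSTM1 had 2.52, 3.0004 and 9.59 CPM in IVM MII, 12.6 and 47.9 CPM in IVO MII, and 135 and 119 CPM in GV. GV libraries were highest, IVO MII libraries were in between and IVM MII libraries were lowest, with no overlap between any of the groups. It shares 77 exonic bases with MGAT4B on the opposite strand, which averaged 6.55 CPM in IVM MII, 8.46 CPM in IVO MII and 1.73 CPM in GV. SQSTM1 fell in IVM MII (log2 fold change -4.65 with an SE of 0.74, edgeR adjusted p = 0.00258) and stood at -2.07 in IVO MII (SE 0.78, edgeR adjusted p = 0.0767). In IVO MII over GV it was called lower with DESeq2, limma voom, the newer edgeR fit, no filter on low counts and the replicate blocks. Other scaling and only the groups compared left it uncalled there. The direct comparison of IVM with IVO MII gave -2.58 (SE 0.69, edgeR adjusted p = 0.0910), which is not a call. Among the settings without a replicate block, it passed with DESeq2 (adjusted p = 0.00310), with the newer edgeR fit (0.0493), without the filter on low counts (0.0335) and without IVM MII replicate 3 (0.0291). Optineurin (OPTN), a receptor for ubiquitinated mitochondria and bacteria, had 13.3, 30.4 and 45.7 CPM in IVM MII, 35.1 and 46.1 CPM in IVO MII and 23.5 and 26.8 CPM in GV, with log2 fold changes over GV of 0.24 (SE 0.50) and 0.69 (SE 0.55).

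At the lysosome a membrane protein rose and a protease fell. LAMP2 encodes a major glycoprotein of the lysosomal membrane that is needed for autophagosomes to mature. LAMP2 had 134, 89.04 and 125 CPM in IVM MII, 156 and 165 CPM in IVO MII, and 51.99 and 39.2 CPM in GV. MII and GV did not overlap, and LAMP2 rose by 1.35 on the log2 scale in IVM MII (SE 0.33, edgeR adjusted p = 0.0144) and by 1.81 in IVO MII (SE 0.36, edgeR adjusted p = 0.00743). CTSB had 22.4, 29.8 and 60.2 CPM in IVM MII, 52.03 and 112 CPM in IVO MII, and 315 and 207 CPM in GV. CTSB, the cysteine protease cathepsin B (chromosome 8, bases 8857024 to 8866111), was below GV in every MII library. It fell in IVM MII (log2 fold change -2.80 with an SE of 0.51, edgeR adjusted p = 0.00411) and was at -1.67 in IVO MII, just outside the threshold (SE 0.57, edgeR adjusted p = 0.0565). Of the alternative settings that kept all libraries, every one but upper quartile scaling called CTSB lower in IVO MII. Macrophages also express CTSB, and 11 of the 12 macrophage and blood markers were found. Their summed level was 0.376 to 6.17 CPM in IVM MII, 3.28 to 4.38 CPM in IVO MII and 26.7 to 35.03 CPM in GV. The sum has the direction of CTSB, but CSF1R held most of it in both GV libraries. CSF1R had 0.161, 2.96 and 2.11 CPM in IVM MII, 0.459 and 2.35 CPM in IVO MII and 32.9 and 24.8 CPM in GV. TYROBP was at 0 in all MII libraries and at 0.968 and 0.727 CPM in GV, and CD14 and LYZ were at 0 in all libraries. CD68 had 0.302 and 0.348 CPM in GV and at most 0.204 CPM in MII. The other markers did not share that direction in full. PTPRC, AIF1, CD3E and HBB were at 0 in both GV libraries and reached at most 0.917 CPM in MII. MS4A1 had 0.302 and 0.285 CPM in GV and up to 2.63 CPM in MII, and CD163 had 0.544 and 0.538 CPM in GV and up to 0.865 CPM in MII. The part of these markers in the CTSB result was not tested.

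The other lysosomal members were not called. LAMP1 had 21.6, 20.1 and 21.6 CPM in IVM MII, 25.99 and 11.7 CPM in IVO MII, and 10.98 and 7.68 CPM in GV. LAMP1, the companion glycoprotein of LAMP2, was above GV in all MII libraries, at log2 fold changes of 1.18 (SE 0.46) in IVM MII and 1.01 (SE 0.49) in IVO MII. CTSD had 0.644, 3.04 and 7.67 CPM in IVM MII, 0.713 and 1.27 CPM in IVO MII, and 9.89 and 4.87 CPM in GV. CTSD, the aspartic protease cathepsin D, was highest in replicate 3 among the IVM MII libraries, and its comparisons with GV gave -0.96 (SE 0.91) and -2.88 (SE 1.09, edgeR adjusted p = 0.0787). TFEB, the transcription factor that switches on lysosomal and autophagy genes, was near the floor, with 0, 6 and 0 counts in IVM MII, 0 and 3 in IVO MII, and 23 and 30 in GV. Its 3 counts in IVO MII correspond to a ratio of 12.4 below GV (95% counting interval 4.03 to 62.3), which the fit did not call (edgeR adjusted p = 0.232). The LAMP2 call was lost in IVM MII without IVM MII replicate 1, GV replicate 1 and GV replicate 2 (edgeR adjusted p = 0.0511 to 0.164) and with unscaled totals (0.161), and in IVO MII without GV replicate 1 and GV replicate 2 (edgeR adjusted p = 0.0540 to 0.0933).

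Of the 38 autophagy and lysosome genes tested, 0 passed the edgeR test between IVM and IVO MII oocytes. At an unadjusted edgeR p under 0.05 there were 8 of 38 members, 21.1%, the same share as the 21.1% of all tested genes. DESeq2 called 3 (ULK1 and ATG5 higher and SQSTM1 lower in IVM MII), limma voom 0, and the fit without IVM MII replicate 3 called 4 (ULK2, ATG14 and ATG3 higher, SQSTM1 lower). Of all tested genes, these settings called 2010, 497 and 1277 in the same order, and nothing is read from member counts this small. The 8 members were ULK1, ATG14 and ATG5, at log2 fold changes of 3.39, 1.25 and 0.98, and ATG101, ATG4D, GABARAPL1, SQSTM1 and CTSB, at -1.82, -3.73, -1.17, -2.58 and -1.13. The fold of ATG4D rests on 1 count in IVM MII and 12 in IVO MII, a ratio of 18.1 with a 95% counting interval of 2.68 to 776. Libraries did not overlap for 4 members that were higher in IVM MII (ULK1, ATG14, ATG5 and UVRAG) and 4 that were lower (ATG4D, GABARAPL1, SQSTM1 and LAMP2), of 38 tested, while 17.8% of all genes were higher and 16% lower without overlap. The most abundant members were close between the groups. MAP1LC3B averaged 691 ± 137 CPM in IVM MII and 657 ± 175 CPM in IVO MII (log2 fold change 0.07, SE 0.31), and GABARAPL2 757 ± 162 and 753 ± 329 CPM (SE of the log2 fold change 0.36). SEs of 0.28 to 1.96 over the members mean that a missing call does not show equal levels.

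Libraries of 1 MII group differed widely for some members. In 16 of 38 tested members (42.1%), IVM MII replicate 3 was the highest of its group and IVO MII replicate 2 was above replicate 1, while 26.9% of all tested genes had that order. The reverse, with both libraries low in their groups, held for 6 members (15.8%), beside 22.9% of all genes. AMBRA1 was 7.98 times the mean of replicates 1 and 2 in IVM MII replicate 3, and IVO MII replicate 2 was 8.72 times replicate 1. For ATG13 these ratios were 3.75 and 7.40, for SQSTM1 3.47 and 3.80, and for BECN1 2.98 and 2.63. CTSB, WIPI2, ATG4B, ATG12 and OPTN followed the same order. Low in both libraries were ULK2, RB1CC1, ATG2B, MAP1LC3B and GABARAPL2, all called higher in MII than in GV, and ATG4C, which was not called. This order was noticed in the data and has no test. In the file names that the labels give, IVM MII replicate 3 and IVO MII replicate 2 both carry the number 3, and replicate 1 of both groups carries the number 1. Whether a shared number means a shared animal or day is not stated, and its part in the order was not tested. The summed level of the oocyte markers was 18210.2 CPM in IVM MII replicate 3, against 9118 and 13995 CPM in replicates 1 and 2. ZP3 had 295, 1427 and 4365 CPM in IVM MII and GDF9 2157, 4871 and 5867 CPM, and BMP15, ZP1, ZP4 and NOBOX were also highest in replicate 3. DDX4, KIT, ZAR1, FIGLA, NLRP5 and TLE6 were lowest in replicate 3 of IVM MII, and ZP2, DAZL, NPM2 and OOEP lay in between. The part of these markers in the order was not tested.

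**Figure D4:**
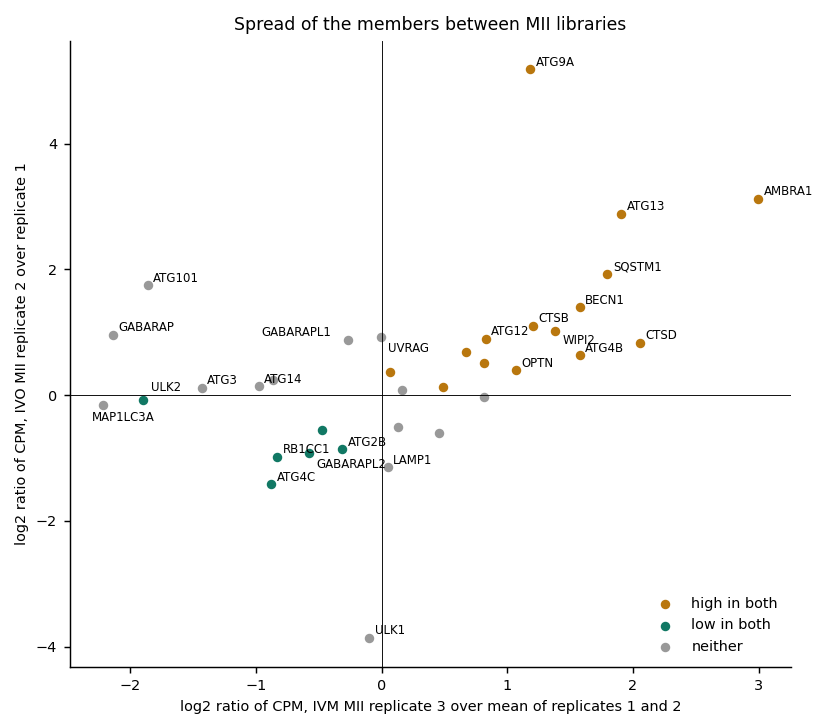
Spread of 35 members between MII libraries, with the log2 ratio of IVM MII replicate 3 to the mean of replicates 1 and 2 across, and that of IVO MII replicate 2 to replicate 1 upwards. Members at 0 in a library that enters a ratio (ATG16L2, ATG4D and TFEB) are not drawn, and AMBRA1, ATG13, SQSTM1 and BECN1 lie to the upper right.

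Genes around the 39 members were counted in 8 lists that hold no member. Of their 172 genes 169 were found and 157 were tested, 31 rose and 33 fell in IVM MII and 21 rose and 26 fell in IVO MII, which is 19.7% and 21.02%, and 13.4% and 16.6%, beside the shares of all genes given above. Single values given for genes of these lists are log2 fold changes over GV, each past an edgeR adjusted p under 0.05. Among the nutrient sensors that hold autophagy back or release it (mTORC1 and AMPK control), 8 of 34 rose and 6 fell in IVM MII and 3 of 34 rose and 3 fell in IVO MII (medians -0.40 and -0.29). LAMTOR4, a subunit of the Ragulator that anchors mTORC1 on the lysosome, averaged 2.76 ± 1.87 CPM in IVM MII and 69.3 ± 6.31 CPM in GV (log2 fold change -4.65 with an SE of 0.60, edgeR adjusted p = 0.00156). SESN3, which encodes a sestrin that restrains mTORC1, rose by 3.19 in IVM MII and 3.54 in IVO MII, and PRKAG2, which encodes a gamma subunit of AMPK, had log2 fold changes of -3.33 and -4.32. RRAGC, a Rag GTPase of the same lysosomal platform, rose by 2.39 in IVO MII. In the list of further receptors, 5 of 14 rose and 4 fell in IVM MII and 5 of 14 rose and 4 fell in IVO MII (medians 0.24 and -0.26). SEC62, a receptor for endoplasmic reticulum, rose by 2.28 and 2.17, TAX1BP1, a receptor for ubiquitinated cargo, by 2.18 in IVO MII, and WDFY3, a large adaptor for protein aggregates, by 2.03 in IVM MII. TEX264, another receptor for endoplasmic reticulum, and PHB2, a mitochondrial receptor, had -5.29 and -2.66 in IVM MII, and RTN3 had -2.02 in IVO MII.

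In the list of further autophagosome and initiation proteins, 2 of 13 rose and 2 fell in IVM MII and 2 of 13 rose and 3 fell in IVO MII (medians -0.66 and -1.27). TRAPPC8, a subunit of a trafficking complex, averaged 14584 ± 3859 CPM in IVO MII and 1654 ± 40.8 CPM in GV (log2 fold change 3.14 with an SE of 0.39, edgeR adjusted p = 0.00211), and EI24 rose by 2.19 in IVM MII and 2.22 in IVO MII. WDR45B, a relative of the WIPI proteins, had log2 fold changes of -1.31 and -2.94, and RAB1A had -1.68 in IVO MII. For the fusion of autophagosome and lysosome, 2 of 16 rose and 4 fell in IVM MII and 2 of 16 rose and 2 fell in IVO MII (medians -2.25 and -1.05). The SNARE genes went both ways: VAMP8 and SNAP29, whose proteins pair in that fusion, had -4.23 and -2.96 in IVM MII and -3.87 and -3.79 in IVO MII, while STX7 and VAMP7 rose by 2.53 and 1.30 in IVM MII and by 2.60 and 1.87 in IVO MII. For the proton pump of the lysosome (V-ATPase), 2 of 17 rose and 7 fell in IVM MII and 0 of 17 rose and 5 fell in IVO MII (medians -0.46 and -1.18). ATP6V1E1 averaged 8.16 ± 2.89 CPM in IVM MII and 125 ± 10.4 CPM in GV (log2 fold change -3.94 with an SE of 0.42, edgeR adjusted p = 0.00127). The pump subunit ATP6V0D1 had -5.66 and -4.69 in IVM and IVO MII, and in IVM MII ATP6AP2 and ATP6V1H rose by 2.07 and 2.06.

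Lysosomal hydrolases and membrane proteins were mixed as well. Of the hydrolases 4 of 34 rose and 6 fell in IVM MII and 2 of 34 rose and 6 fell in IVO MII (medians -0.85 and -0.65). LIPA, the acid lipase, rose by 2.15 in IVM MII and 2.12 in IVO MII, and IDS, a sulfatase, by 1.83 and 1.41, while the sialidase gene NEU1 had -1.93 and -3.29. MAN2B1, a mannosidase, had -3.43 in IVM MII, and GLA, a galactosidase, -4.13 in IVO MII. Of the membrane and sorting proteins 7 of 22 rose and 4 fell in IVM MII and 6 of 22 rose and 3 fell in IVO MII (medians -0.96 and -0.25). LAPTM4A and OSTM1 rose by 2.93 and 2.81 in IVM MII, and the amino acid transporter SLC36A1 and the cholesterol exporter NPC1 by 3.40 and 2.20 in IVO MII. GNPTG, a subunit of the enzyme that tags hydrolases for the lysosome, had -4.01 and -4.16, and the cystine exporter CTNS -3.57 and -3.70, in IVM and IVO MII. Of the MiT and FoxO transcription factors 1 of 7 rose and 0 fell in each comparison (medians 0.50 and 0.76). That gene, FOXO3, a regulator of the primordial follicle pool that also drives autophagy genes, averaged 87.3 ± 15.2 CPM in IVM MII and 20.1 ± 0.632 CPM in GV (log2 fold change 2.12 with an SE of 0.34, edgeR adjusted p = 0.00278).

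Between IVM and IVO MII, 3 genes of the 8 lists were higher (1.91%) and 2 lower (1.27%) in IVM MII, of 157 tested. Of all tested genes 0.892% were higher and 0.58% lower, and nothing is read from counts this small. LAMTOR3, a scaffold subunit of the Ragulator, averaged 1079 ± 433 CPM in IVM MII and 80.1 ± 47.98 CPM in IVO MII (log2 fold change 3.75 with an SE of 0.54, edgeR adjusted p = 0.0247). RRAGD, a Rag GTPase, averaged 14.6 ± 8.25 CPM in IVM MII and 0.596 ± 0.411 CPM in IVO MII (log2 fold change 4.58 with an SE of 0.89, edgeR adjusted p = 0.0476). BNIP3, a receptor that marks mitochondria for autophagy, averaged 222 ± 47.6 CPM in IVM MII and 33.3 ± 10.1 CPM in IVO MII (log2 fold change 2.74 with an SE of 0.37, edgeR adjusted p = 0.0217), and BCL2L13, another mitochondrial receptor, 32.01 ± 5.62 CPM in IVM MII and 121 ± 32.03 CPM in IVO MII (log2 fold change -1.92 with an SE of 0.33, edgeR adjusted p = 0.0371). TRAPPC8 had a log2 fold change of -1.76 between IVM and IVO MII. Against GV, BNIP3 was at -2.46 in IVO MII and RRAGD at 4.27 in IVM MII. All 5 calls between IVM and IVO MII were lost without IVM MII replicate 1 and without IVM MII replicate 2, where 0 of all tested genes passed. These calls were also lost without IVO MII replicate 2, and some were lost without either GV library. Without IVM MII replicate 3, 14 genes of the lists were higher and 6 lower, beside 787 and 490 of all tested genes. Without GV replicate 1 or GV replicate 2, each of which leaves 1 GV library, fewer genes of the lists were called in either direction against GV. The same held for all tested genes.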

How the data were processed

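Messenger RNA was measured in oocytes lysed and reverse transcribed from poly(A) ends with template switching, followed by PCR of full-length cDNA and tagmentation, per the labels' protocols. The deposited values are raw counts per gene, which the authors left unnormalized. The submitters' processing notes name featureCounts 2.0.1, Bowtie2 2.4.5, Trim Galore 0.6.7, SAMtools 1.15.1 and DESeq2. How reads with several matches and strand were treated, and which genome build was used, is not stated there. Because Bowtie2 aligns without introns, a read that spans an exon junction may be missing or assigned to an intronless copy. Exonic bases shared with another row were found for 9 members, in each case on the opposite strand. Positions come from the deposited table, whose build has no name there.

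Lines of 3 genes broken over 10 lines were left out, and 0 columns of per-sample values were unmapped. Rows of 3 list genes were named through a RefSeq gene table of the species (a telomere-to-telomere assembly), used for names only. Counts were tested with edgeR 4.0.16 (filterByExpr, TMM, trended dispersion, glmQLFit and glmQLFTest, default settings) and limma 3.58.1 and DESeq2 1.42.0 as alternatives in R 4.3.3, two-sided, with all 7 libraries in 1 fit. Benjamini-Hochberg adjustment ran over all 16374 genes tested, with a threshold of 0.05. SE is the log2 fold change divided by the square root of F. Values after ± are SDs, with n = 3 for IVM MII and n = 2 for IVO MII and GV. Levels per length divide CPM by the exonic length in the deposited table. A group with 0 counts is given against a floor of 3 counts per library, and a group of 1 to 3 counts by its ratio and exact 95% interval, which cover counting error only. Setting such genes at their bound left the medians of the members as printed. The alternatives were other scaling, no filter, other tools, only the groups compared, a replicate block (by the number in the titles or in the file names) and each library left out. The 39 members and all lists were chosen with earlier results of these data known. Of the members, those called in a comparison are given in every library. From the other lists the text names up to 2 called genes with the highest and 2 with the lowest fold change per list and comparison, with at least 10 CPM in the higher group.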

Additional observations from a re-analysis of the deposited data

How the results depend on the processing

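Of the 25 member calls, 20 held in every setting that kept all libraries, 6 also held with each library left out, and 0 changed sign. AMBRA1 in IVO MII over GV, not called at 0.56, was called with the opposite sign at -1.72 (edgeR adjusted p = 0.0155) with the replicate block by file number. Members without a call changed sign in 73 fits, over 24 genes. Between IVM and IVO MII, where 0 members were called, DESeq2 called 2 higher and 1 lower, and 1 lower member (SQSTM1) was called with no filter on low counts, with the newer edgeR fit and with either replicate block. In IVO MII over GV, the 4 lower members became 8 with no filter, 11 with DESeq2, 11 with limma voom and 10 with the newer edgeR fit. They became 10 with only the groups compared, 12 with the replicate block and 8 with unscaled totals. Over all genes, the 2204 lower ones became 2349, 3325, 3443 and 3430 in the first 4 of these settings. With only the groups compared, the replicate block and unscaled totals they became 2931, 2428 and 3123. In IVM MII over GV the 9 lower members became 14 with unscaled totals, while the 2912 lower genes overall became 4170. The cause of these moves was not tested. With each library left out, the counts ran over 0 to 3 higher and 0 to 1 lower members in IVM over IVO MII, 1 to 7 and 0 to 10 in IVO MII over GV, and 2 to 8 and 3 to 10 in IVM MII over GV.

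Over all genes, calls between IVM and IVO MII numbered 241, against 731 without a filter on low counts, 2010 with DESeq2, 497 with limma voom, 774 with the newer edgeR fit, 54 with only the groups compared, 1238 with the replicate block, 832 with the replicate block by file number and 0 to 1277 with each library left out. In IVO MII over GV they numbered 4596, against 1484 to 5517 with each library left out, and in IVM MII over GV 5949, against 2110 to 6716 with each library left out. Upper quartile scaling gave 127 higher and 125 lower genes between IVM and IVO MII, beside 146 and 95, with the median of all genes at -0.11.

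Libraries with the same number in their titles deviated from their group means with a correlation over genes of 0.353 and -0.177 for IVM and IVO MII, -0.171 and 0.11 for IVM MII and GV, and -0.234 for IVO MII and GV. File names number IVO MII replicate 2 as 3, which pairs it with IVM MII replicate 3 at 0.406. The deviations of 2 IVO MII libraries from their mean mirror each other. The values 0.353 and 0.406 thus draw on the same difference and are not separate. The labels do not say what a number marks, and 2 such pairs of MII libraries do not settle it, so the fit without a block was kept. With the replicate block by title, 7 members rose and 12 fell in IVO MII over GV and 7 and 11 in IVM MII over GV. Of all tested genes, 2498 rose and 2428 fell in IVO MII over GV with that block, and 2984 and 2834 in IVM MII over GV. The replicate block by file number was chosen after seeing the data. With it, 7 members rose and 9 fell in IVO MII over GV, 8 and 14 in IVM MII over GV, and 0 and 1 in IVM over IVO MII. Of all tested genes, 2506 rose and 2573 fell, 3487 and 3486, and 542 and 290, in the same order. MAP1LC3A lost its call in IVO MII with this block (edgeR adjusted p = 0.0932). SQSTM1 in IVM over IVO MII was called at -3.29 (edgeR adjusted p = 0.0161) by title and -2.25 (edgeR adjusted p = 0.0103) by file number. In IVM MII over GV, AMBRA1 was called at -2.66 (edgeR adjusted p = 0.0281) by title and -2.53 (edgeR adjusted p = 0.000838) by file number, and ATG13 at -3.18 (edgeR adjusted p = 0.0245) by title and -3.06 (edgeR adjusted p = 0.00351) by file number. A crossed block of GV and IVO MII by title, added after seeing the data, gave 7 and 12, beside 2584 and 2964 of all tested genes. Groups of 2 and 3 libraries limit all comparisons, and members under about 3 CPM (ULK1, ATG2A, ATG4D, TFEB, ATG9A) rest on few counts.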
